A study of Mus musculus with 16 samples.

Results

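Keratins are the intermediate filament proteins of epithelial cells, and 8 keratin genes of the epidermis are described here in mouse dorsal skin. They were chosen by symbol, not by their measured values, as rows of the deposited count tables, and make up 8 of 23282 rows. Earlier results of these data were known when they were chosen. The 3 keratins of the basal layer were Krt5, Krt14 and Krt15, and the 5 keratins of the suprabasal layers were Krt1, Krt10, Krt2, Krt77 and Krt80. All 8 passed the filter on low counts and were among the 14854 rows tested. Male wild-type C57BL/6N mice, 4 weeks old when feeding began and 16 weeks old at the end, gave 1 library each, with 4 randomly chosen mice in each of 4 groups. Cont mice ate normal chow. LowAhR mice ate a diet low in ligands of the aryl hydrocarbon receptor (AhR), a transcription factor activated by small molecules from food and the environment, on paper bedding for 12 weeks. LowAhR+AD mice ate the same diet and had 1% 2,4-dinitrochlorobenzene (DNCB), a hapten that provokes dermatitis, painted on the back in acetone and olive oil for 10 weeks to model atopic dermatitis (AD). LowAhR+AD+BJ mice had the diet and DNCB and in addition received the herbal decoction Bojungikgi-tang (BJIKT) at 1 g/kg per day by gavage. No group received DNCB or BJIKT without the diet, so the comparisons below concern mice on that diet except where Cont is named, and whether the other groups received the DNCB solvent or the gavage vehicle is not given in the sources used here.

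A keratin filament is built from pairs of a type I and a type II keratin. Cells of the basal layer, which divide and hold the epidermis to its basement membrane, make Krt5 (type II) with Krt14 (type I), and Krt15 (type I) is added in resting basal cells and in the stem cells of the hair follicle. When a cell leaves the basal layer and begins to differentiate, it turns to Krt1 (type II) and Krt10 (type I), and the type II keratins Krt2 and Krt77 are added in upper layers or certain body sites, while Krt80 (type II) is a minor keratin of differentiating epithelial cells. The outer root sheath of the hair follicle also makes Krt5 and Krt14, so that in whole skin these mark keratinocytes in general and not only the interfollicular epidermis.

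The members lie in the keratin gene clusters on mouse chromosomes 11 and 15, all on the minus strand (GRCm38, the build that the submitters' processing notes call mm10, with GENCODE M21 genes). The type I genes are Krt10 at chr11:99385254-99389364, Krt15 at chr11:100131758-100135928 and Krt14 at chr11:100203162-100207548. The type II genes are Krt80 at chr15:101347444-101370162, Krt5 at chr15:101707070-101712898, Krt2 at chr15:101810689-101818169, Krt1 at chr15:101845426-101850794 and Krt77 at chr15:101858731-101869705. The last 300 bases of their coding transcripts, where this assay reads, held 0 stretches of 50 bases in common with a transcript of any other gene. Krt10 overlaps the antisense gene Gm11940 and Krt80 the antisense gene Gm35853. Neither of these had a row in the tables, and whether strand was used in counting is not given in the sources used here, so their reads cannot be told apart from those of Krt10 and Krt80.

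RefSeq promoter sequence (GRCm38.p6) was on hand for 5 of the 8 members. For 4 of them, the 250 bases just before the start site are shown, because Krt5 rose and Krt2 and Krt77 fell in LowAhR+AD versus LowAhR, and because Krt10 varied widely among DNCB-treated mice. Each is on the minus strand and upstream of the gene, in no exon of it, at chr15:101712906-101713155 for Krt5, chr11:99389365-99389614 for Krt10, chr15:101818170-101818419 for Krt2 and chr15:101869706-101869955 for Krt77. Capitals mark matches on either strand to 5 short motifs, and no match overlapped another. The motif of AP-1 factors was searched as TGANTCA. The TATA box was searched as TATAAA. The CCAAT box was searched by those letters, which appear as ATTGG when the match is on the opposite strand. The GC box was searched as GGGCGG. The motif of KLF factors was searched as CACCC, which appears as GGGTG when the match is on the opposite strand.
Krt5: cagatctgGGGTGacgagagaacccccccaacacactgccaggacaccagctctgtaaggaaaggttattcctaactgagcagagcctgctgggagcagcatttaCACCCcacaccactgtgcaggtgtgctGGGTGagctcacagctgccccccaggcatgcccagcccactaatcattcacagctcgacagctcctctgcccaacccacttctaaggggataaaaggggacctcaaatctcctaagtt
Krt10: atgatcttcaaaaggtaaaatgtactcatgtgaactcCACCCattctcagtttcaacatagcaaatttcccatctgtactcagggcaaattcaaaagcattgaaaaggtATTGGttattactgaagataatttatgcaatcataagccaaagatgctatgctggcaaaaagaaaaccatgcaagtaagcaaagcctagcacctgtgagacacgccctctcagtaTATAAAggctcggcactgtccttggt
Krt2: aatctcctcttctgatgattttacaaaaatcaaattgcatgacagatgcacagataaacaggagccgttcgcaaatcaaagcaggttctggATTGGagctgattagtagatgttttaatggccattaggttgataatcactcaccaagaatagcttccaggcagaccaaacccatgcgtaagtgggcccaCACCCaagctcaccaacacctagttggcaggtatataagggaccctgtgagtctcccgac
Krt77: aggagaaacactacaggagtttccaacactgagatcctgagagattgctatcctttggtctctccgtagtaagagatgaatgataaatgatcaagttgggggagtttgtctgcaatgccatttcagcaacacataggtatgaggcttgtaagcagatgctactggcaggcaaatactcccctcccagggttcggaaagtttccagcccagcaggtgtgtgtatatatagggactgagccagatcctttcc
Krt10 held a TATA box 26 to 21 bases before the start, a motif found in 12.4% of 32851 promoter windows of this length, with 1 CCAAT match (33.8% of windows) and 1 CACCC match (52% of windows). Krt5 held 3 CACCC matches and Krt2 held 1 CCAAT and 1 CACCC match. The letters of AP-1 (6.75% of windows) and of the GC box (32.7% of windows) were in none of these 4 windows. Krt77 held none of the 5 motifs in the exact letters searched. Variants of the TATA box were not searched, and the windows of Krt2 and Krt77 hold the similar letters tatata. These are matches of letters only. The listed RefSeq start of Krt14 lay 1518 bases inside the GENCODE gene, so its window is not shown.

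Libraries were made with QuantSeq, which reads the end of each polyadenylated transcript next to its tail, and held 7080508 to 13467477 counts. Both DNCB-treated groups had higher totals (10614393 to 13467477) than the others (7080508 to 8773876). Levels are given as CPM, counts brought to one common total by TMM scaling, and at these totals a count of 0 allows up to 0.229 to 0.406 CPM. Read counts without molecular identifiers hold PCR copies, so such limits and intervals cover counting error only. LowAhR+AD replicate 1 stood apart, with no count for 32.6% of genes at which 20 to 40 counts were expected, against at most 13.8% in any other library. Its low levels and counts of 0 below, and ratios that rest on them, carry this limit. The labelled tissue was checked against 21 genes of keratinocytes in general, such as desmosome and adhesion genes, and all were tested, with a summed level of 6296 to 15762 CPM in every library. These are bulk samples, in which fewer cells of a type and less RNA per cell cannot be told apart. The 8 keratins together took 0.498% to 0.616% of the counts in Cont, 0.487% to 0.631% in LowAhR, 0.607% to 1.23% in LowAhR+AD and 0.583% to 0.919% in LowAhR+AD+BJ.

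**Figure D1:**
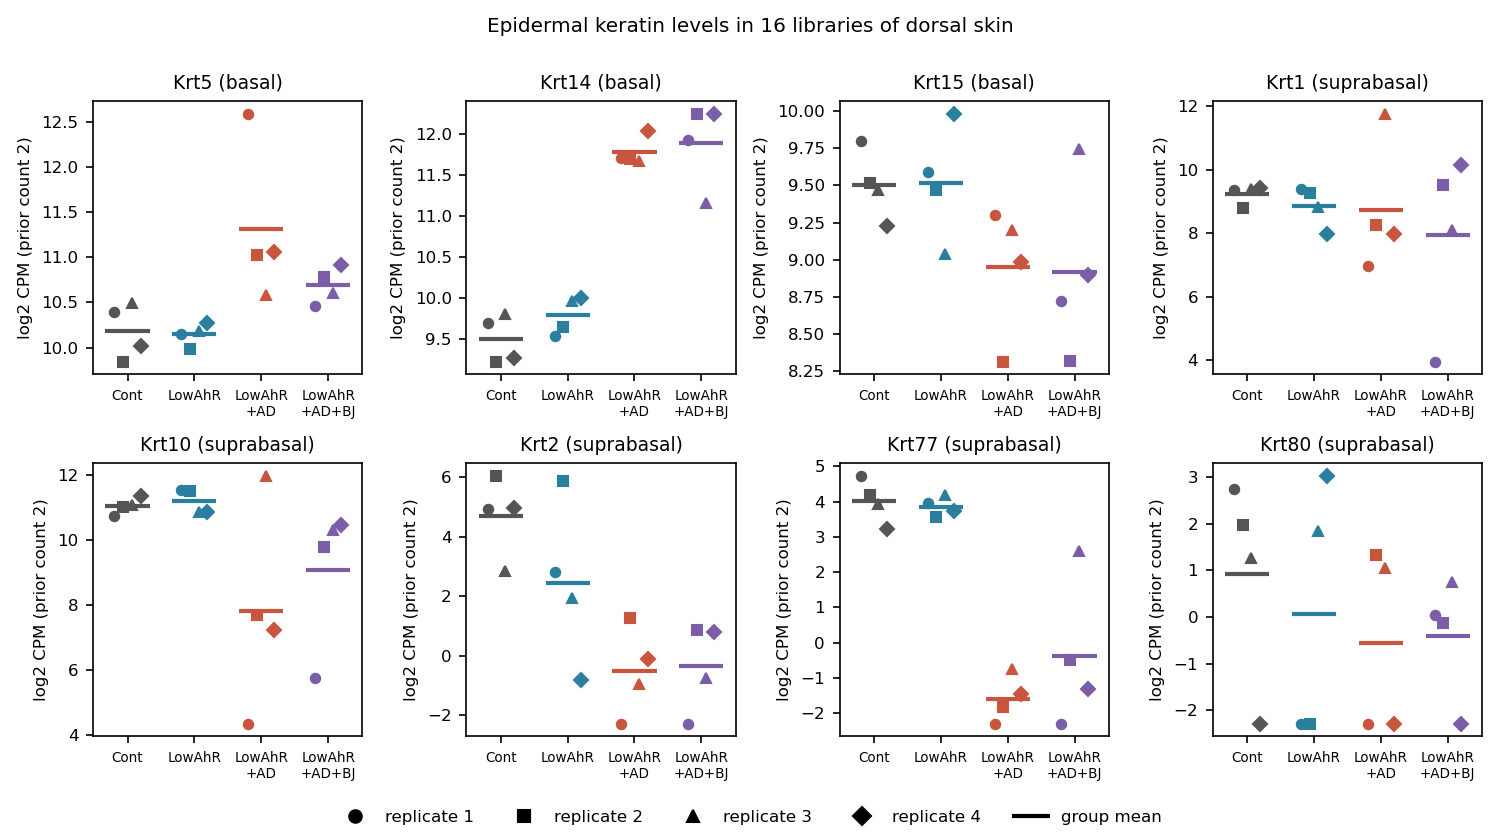
Level of each keratin (log2 CPM with a prior count of 2) in each of the 16 libraries, by group, with the group mean as a bar and the replicate number as the symbol. Krt14 is higher in all 8 DNCB-treated libraries than in all 8 others, Krt77 is lower in them, and Krt1 and Krt10 are spread widely among them, while libraries with no count sit at the lowest value of a panel.

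Krt14, the type I keratin of the basal layer, was higher in every DNCB-treated mouse than in any other and differed little among untreated ones. In replicates 1 to 4 it had 829, 596, 892 and 615 CPM in Cont and 742, 801, 993 and 1027 CPM in LowAhR. It had 3353, 3305, 3269 and 4193 CPM in LowAhR+AD and 3909, 4841, 2294 and 4866 CPM in LowAhR+AD+BJ. The lowest DNCB-treated library, LowAhR+AD+BJ replicate 3, was above the highest of the 8 others. The group means were 733 ± 150, 891 ± 140, 3530 ± 443 and 3978 ± 1207 CPM (SD, n = 4) from the Cont to the LowAhR+AD+BJ group, in the order in which the groups were introduced. Krt14 rose 3.96-fold in LowAhR+AD versus LowAhR (log2 fold change 1.99, SE 0.27, adjusted p = 3.01e-04 from edgeR).

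Krt5, the type II partner of Krt14, also rose, by less and less evenly. It had 1343, 917, 1442 and 1033 CPM in Cont and 1138, 1014, 1165 and 1233 CPM in LowAhR. It had 6185, 2088, 1530 and 2132 CPM in LowAhR+AD and 1412, 1758, 1560 and 1934 CPM in LowAhR+AD+BJ. LowAhR+AD replicate 1 had more than any other library by a wide margin, and is the library with many missing genes. The log2 fold change in LowAhR+AD versus LowAhR was 1.39 (SE 0.35, adjusted p = 0.0148 from edgeR), a 2.62-fold rise. Without that replicate it was 0.75 (adjusted p = 0.0313 from edgeR). The groups did not overlap in either case, since the other LowAhR+AD libraries were also above all LowAhR libraries. The call was lost when only the 8 libraries compared were modelled, with the log2 fold change still 1.39 (adjusted p = 0.0860 from edgeR), and when levels were taken relative to the keratinocyte genes (log2 fold change 0.68, adjusted p = 0.190 from edgeR).

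Krt15, the keratin of resting basal cells, was not called in any comparison. It had 891, 731, 710 and 599 CPM in Cont and 772, 707, 526 and 1011 CPM in LowAhR. It had 629, 318, 588 and 506 CPM in LowAhR+AD and 422, 319, 859 and 477 CPM in LowAhR+AD+BJ. The groups overlapped, and the log2 fold change in LowAhR+AD versus LowAhR was -0.56 (95% interval -1.20 to 0.07, adjusted p = 0.233 from edgeR). Its group means ran from 754 ± 201 CPM in LowAhR to 510 ± 138 CPM in LowAhR+AD, and no pair of neighbours in that order differed beyond the spread between mice.

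Krt10 and Krt1, the keratin pair of the first differentiated layer, were the least uniform members among DNCB-treated mice. Krt10 had 1714, 2064, 2155 and 2606 CPM in Cont and 3002, 2932, 1854 and 1857 CPM in LowAhR. It had 20.2, 206, 4021 and 151 CPM in LowAhR+AD and 53.9, 884, 1271 and 1407 CPM in LowAhR+AD+BJ. Of the 4 LowAhR+AD libraries, 3 were far below every library without DNCB, and replicate 3 was above them all. The highest LowAhR+AD value was 199 times the lowest, against 1.52 times in Cont and 1.62 times in LowAhR. That lowest value was from replicate 1, the library with many missing genes, and the next lowest was 151 CPM. With all libraries the log2 fold change in LowAhR+AD versus LowAhR was -1.13 (SE 1.02, adjusted p = 0.507 from edgeR). The difference in mean log2 CPM was larger, at -3.38 (exact permutation p = 0.143), as were the values from limma voom (-3.39, adjusted p = 0.0506) and with a replicate block (-2.87, adjusted p = 0.158 from edgeR). Without LowAhR+AD replicate 3 the edgeR value was -4.26 (adjusted p = 0.00413 from edgeR), so that library decides the call.

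Krt1 was lowest and highest in the same libraries as Krt10 within each DNCB-treated group. It had 656, 450, 676 and 695 CPM in Cont and 675, 613, 451 and 254 CPM in LowAhR. It had 126, 304, 3495 and 252 CPM in LowAhR+AD and 15.2, 730, 277 and 1150 CPM in LowAhR+AD+BJ. LowAhR+AD replicate 3 was the highest of all 16 libraries and LowAhR+AD+BJ replicate 1 the lowest. The fitted log2 fold change in LowAhR+AD versus LowAhR was 1.07 (SE 0.93, adjusted p = 0.488 from edgeR), while the difference in mean log2 CPM was -0.12 (exact permutation p = 0.971), so these measures differed in sign. Without LowAhR+AD replicate 3 the fitted value was -1.13 (adjusted p = 0.352 from edgeR).

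**Figure D2:**
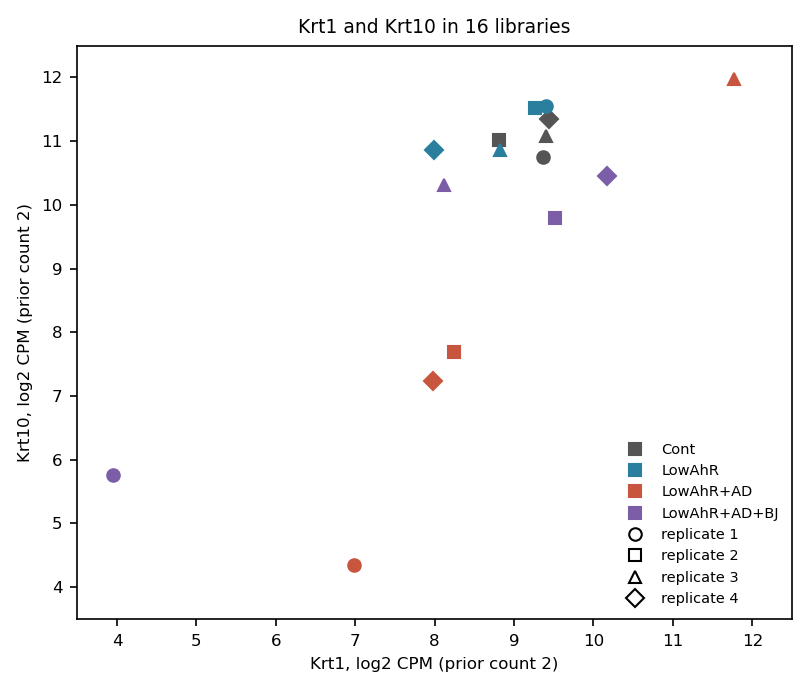
Krt10 against Krt1 (both log2 CPM with a prior count of 2) in the 16 libraries, coloured by group with the replicate number as the symbol. The 8 libraries without DNCB lie close together, and the 8 DNCB-treated libraries spread from low levels of both keratins to the high levels of LowAhR+AD replicate 3.

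Across the 8 DNCB-treated libraries, log2 levels of Krt1 and Krt10 were correlated, with Pearson's r = 0.82 (exact permutation p = 0.0102, adjusted 0.0410) and Spearman's rho = 0.90 (exact permutation p = 0.00456, adjusted 0.0183). Without the 2 libraries farthest from the median of Krt1 (LowAhR+AD+BJ replicate 1 and LowAhR+AD replicate 3), r was 0.81 in the other 6. These 6 include LowAhR+AD replicate 1, the library with many missing genes, which was the lowest of them for both keratins. In the 8 libraries without DNCB, r was 0.50 (exact permutation p = 0.205, adjusted 0.273). For Krt5 and Krt14, r was -0.02 (exact permutation p = 0.952, adjusted 0.952) with DNCB and 0.69 (exact permutation p = 0.0610, adjusted 0.122) without it. The value near 0 with DNCB rested on 2 libraries, since r was 0.51 in the other 6 without LowAhR+AD replicate 1 and LowAhR+AD+BJ replicate 1, the farthest from the median of Krt5. Without 2 libraries chosen in that way, r in the sets without DNCB was 0.54 for Krt5 and Krt14 and 0.41 for Krt1 and Krt10. The p-values were adjusted over these 4 relations. The libraries of a set come from 2 groups and share their depth and scaling.

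Krt77, a type II keratin of suprabasal cells, was nearly absent from DNCB-treated skin. It had 26.3, 17.8, 15.1 and 9.22 CPM in Cont and 15.3, 11.5, 18.1 and 13.1 CPM in LowAhR. In LowAhR+AD it had 0, 0.082, 0.39 and 0.16 CPM, which are 0, 1, 5 and 2 counts. In LowAhR+AD+BJ it had 0, 0.51, 5.83 and 0.20 CPM, with 75 of the 82 counts of the group in replicate 3. All 8 DNCB-treated libraries were below all 8 others. Over the group, 8 counts in LowAhR+AD stood against 452 in LowAhR, a level 91.4-fold lower (95% counting interval 46.0 to 213), and the log2 fold change was -6.41 (SE 1.16, adjusted p = 0.00230 from edgeR).

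Krt2, a type II keratin of upper suprabasal cells, was low throughout and uneven between mice on either diet. It had 30.7, 66.0, 6.91 and 31.1 CPM in Cont and 6.90, 58.7, 3.64 and 0.36 CPM in LowAhR. It had 0, 2.22, 0.31 and 0.72 CPM in LowAhR+AD and 0, 1.63, 0.39 and 1.51 CPM in LowAhR+AD+BJ. DNCB-treated libraries were all below the Cont libraries and overlapped the LowAhR libraries, of which replicate 4 was as low. The log2 fold change in LowAhR+AD versus LowAhR was -4.41 (SE 1.28, adjusted p = 0.0299 from edgeR). Its size rested largely on 1 LowAhR mouse, since 459 of the 541 counts of the LowAhR group came from replicate 2, without which the value was -2.15 (adjusted p = 0.245 from edgeR). Without LowAhR+AD replicate 1, 3 or 4 the value stayed about as large (-4.01, -4.14 and -4.36), with adjusted p of 0.0529, 0.0628 and 0.0699 from edgeR.

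Krt80 was near the limit of detection, with 0 to 8.0 CPM in 16 libraries and a count of 0 in 6 of them. Its group means were 3.13 ± 2.75, 2.84 ± 3.79, 1.04 ± 1.21 and 0.753 ± 0.605 CPM (SD, n = 4) in the order above. No difference between groups was called (log2 fold change -1.44, 95% interval -5.07 to 2.18, adjusted p = 0.628 from edgeR in LowAhR+AD versus LowAhR). Summed counts were 52 in LowAhR+AD against 93 in LowAhR, a level 2.89-fold lower (95% counting interval 2.04 to 4.15). That counting interval leaves out the spread between mice, which was wide.

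**Figure D3:**
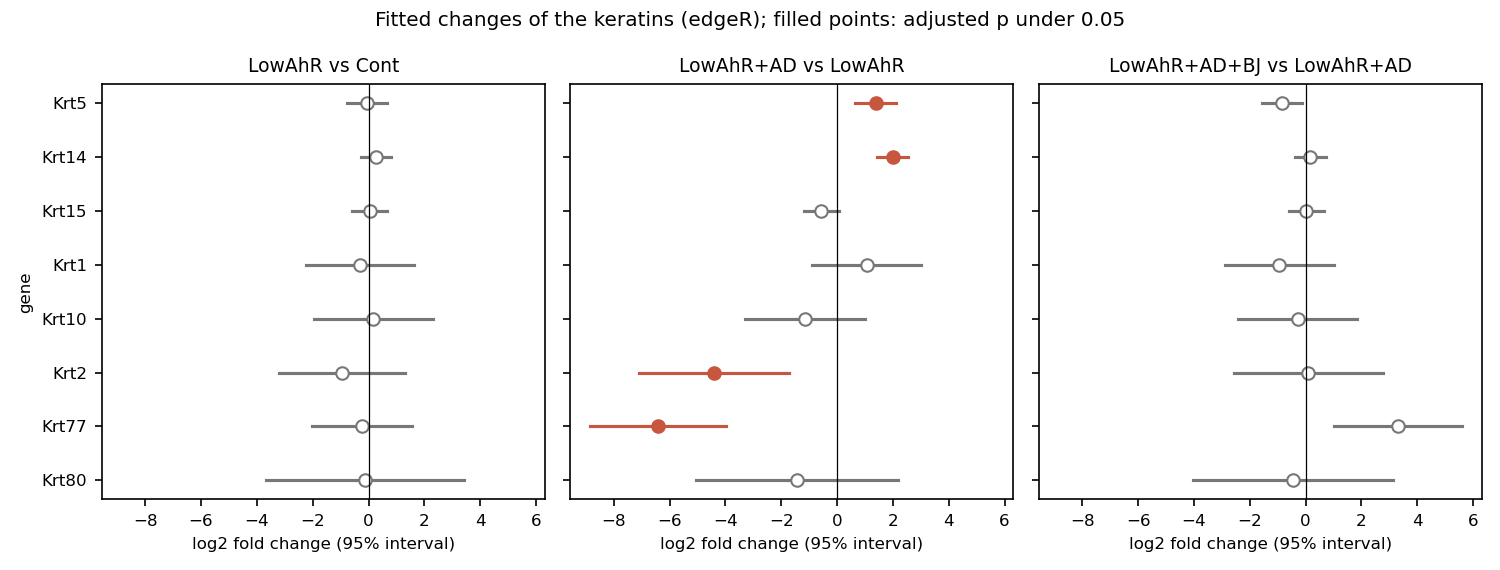
Fitted log2 fold change of each keratin (point) with its 95% interval (line) in LowAhR versus Cont, LowAhR+AD versus LowAhR and LowAhR+AD+BJ versus LowAhR+AD. Filled points have an adjusted p under 0.05 from edgeR, which Krt5, Krt14, Krt2 and Krt77 reach in the middle panel and no keratin reaches in the outer panels.

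The first comparison asked what the diet and its bedding did without DNCB. Paper bedding is described only for mice on this diet, so diet and bedding cannot be told apart here. Between LowAhR and Cont, 0 of 8 keratins were called at an adjusted p under 0.05 from edgeR, where 0% of all tested genes were called, 0% higher and 0% lower. The lowest adjusted p of any gene was 0.0629, and 2031 genes (13.7%) but 0 keratins had an unadjusted p under 0.05. DESeq2 called 491 genes, of which 0 were keratins. The log2 fold changes of the keratins ran from -0.95 for Krt2 to 0.28 for Krt14. The 95% intervals were -0.77 to 0.66 for Krt5, -0.26 to 0.82 for Krt14 and -0.59 to 0.67 for Krt15. They were wide for Krt10 (-1.95 to 2.30), Krt1 (-2.24 to 1.62), Krt2 (-3.21 to 1.31), Krt77 (-2.03 to 1.55) and Krt80 (-3.68 to 3.41). For Krt2 the difference in mean log2 CPM was -2.24 (exact permutation p = 0.229), and limma voom gave -2.42 (adjusted p = 0.399).

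The second comparison asked what DNCB did in mice on the diet. Between LowAhR+AD and LowAhR, 4 of 8 keratins were called, against 12.6% of all tested genes. Krt5 and Krt14 were higher (6.42% of genes were called higher) and Krt2 and Krt77 lower (6.21% of genes). The median log2 fold change of the 8 was -0.85, against 0.04 over all tested genes. By layer, 2 of 3 basal keratins were called higher and 0 lower, and 2 of 5 suprabasal keratins were called lower and 0 higher. Between LowAhR+AD and Cont, a comparison that shares the LowAhR+AD libraries, the same 4 genes were called (21.8% of genes in all, 12.3% higher and 9.47% lower). There the log2 fold changes were 1.33 for Krt5, 2.27 for Krt14, -5.36 for Krt2 and -6.65 for Krt77, with adjusted p of 0.0108, 6.04e-05, 0.00779 and 8.51e-04 from edgeR. For Krt5 this was 0.68 without LowAhR+AD replicate 1 (adjusted p = 0.0279 from edgeR) and 0.90 relative to keratinocyte genes (adjusted p = 0.0829 from edgeR). It stayed at 1.33 with only the 8 libraries compared (adjusted p = 0.0573 from edgeR).

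The third comparison asked what BJIKT did in mice with the diet and DNCB. Between LowAhR+AD+BJ and LowAhR+AD, 0 of 8 keratins and 0% of tested genes were called, 0% higher and 0% lower, while 1405 genes (9.46%) had an unadjusted p under 0.05. DESeq2 called 17 genes, of which 0 were keratins. Krt5 was lower by the point estimate, with a log2 fold change of -0.84 (95% interval -1.56 to -0.12, unadjusted p = 0.0250 and adjusted p = 0.50 from edgeR). Without LowAhR+AD replicate 1 this was -0.21. Krt77 had a log2 fold change of 3.30 (unadjusted p = 0.00734, adjusted p = 0.498 from edgeR), which was 0.51 without LowAhR+AD+BJ replicate 3. Krt14 differed by 0.17 (95% interval -0.37 to 0.71). Krt10 and Krt1 differed by -0.28 and -0.94, with 95% intervals of -2.41 to 1.84 and -2.89 to 1.00, and without LowAhR+AD replicate 3 by 2.85 (adjusted p = 0.312 from edgeR) and 1.26 (adjusted p = 0.519 from edgeR). The sign for this pair thus turned on 1 LowAhR+AD mouse, and for Krt10 it also changed without LowAhR+AD+BJ replicate 1 (0.11). With all libraries kept, the sign for Krt10 also depended on the measure. The difference in its mean log2 CPM was 1.27 (exact permutation p = 0.543). It was 1.27 with limma voom (adjusted p = 0.606) and 0.79 with a replicate block (adjusted p = 0.849 from edgeR).

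Against LowAhR, LowAhR+AD+BJ had 2 of 8 keratins called (6.77% of all tested genes, 3.64% higher and 3.12% lower). Krt14 was higher by 2.16 on the log2 scale (adjusted p = 4.09e-04 from edgeR), and Krt2 was lower (-4.31, adjusted p = 0.0499 from edgeR), but Krt2 was called in only 1 of the 8 fits that left out a library. Krt77 was at the threshold (-3.11, adjusted p = 0.0530 from edgeR). It was called with RLE factors, upper-quartile factors, DESeq2, limma voom, the replicate block and scaling to keratinocyte genes (adjusted p of 0.00548 to 0.0497), and without LowAhR+AD+BJ replicate 3 it was -5.88 (adjusted p = 8.77e-04 from edgeR). Krt10 was lower in all 4 LowAhR+AD+BJ libraries than in all 4 LowAhR libraries (exact permutation p = 0.0286), with a fitted value of -1.42 (adjusted p = 0.468 from edgeR). Krt5 also did not overlap (exact permutation p = 0.0286) and had a fitted value of 0.55 (adjusted p = 0.380 from edgeR). That is the smallest p that 4 libraries against 4 allow. Of 48 exact permutation tests on the members (two-sided, 6 pairs of groups), 15 reached it, and adjusted over the 48 it was 0.0914, so 0 passed the threshold by this test. The share of all tested genes that reached it was not computed, so the count of 15 is no result about the keratins.

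**Figure D4:**
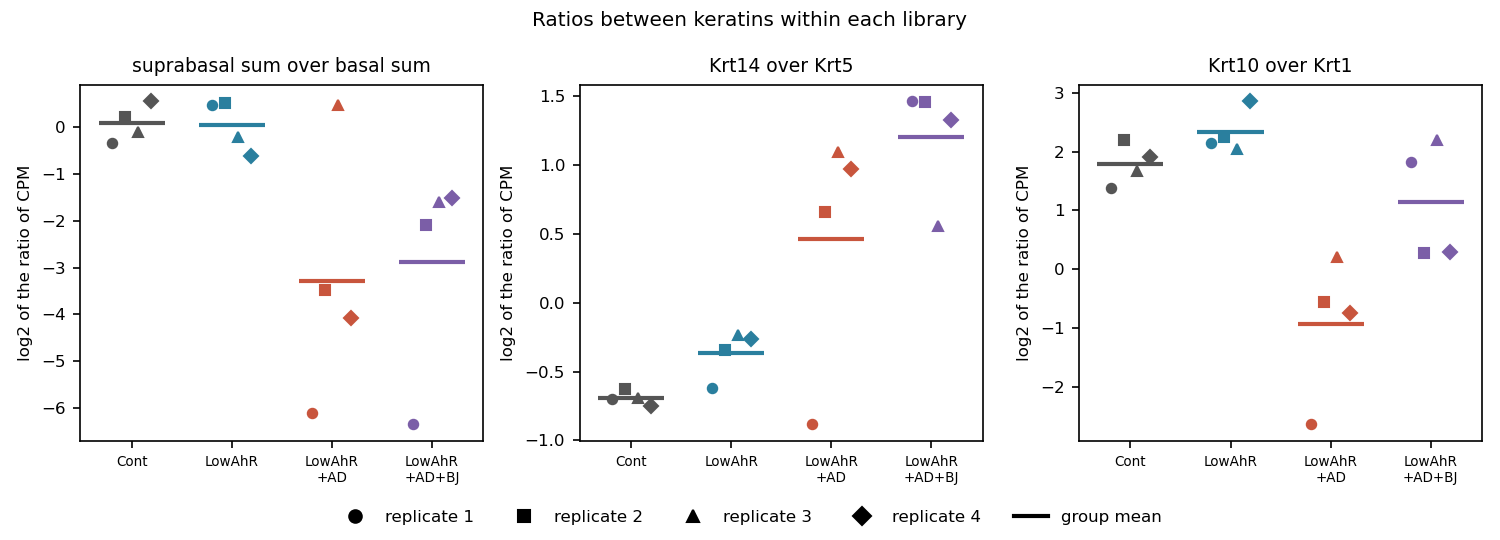
Log2 of the ratio of CPM between keratins within each library, by group, with the group mean as a bar and the replicate number as the symbol. The suprabasal to basal ratio is low in 7 of the 8 DNCB-treated libraries, and the Krt14 to Krt5 ratio is high in 7 of them.

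Ratios within a library do not depend on its scaling. They are given as a description without a test, and because counts are not per unit length they are compared only between libraries. The summed suprabasal over the summed basal keratins were 0.795, 1.16, 0.938 and 1.49 in Cont and 1.39, 1.43, 0.868 and 0.652 in LowAhR. They were 0.0144, 0.0901, 1.40 and 0.0591 in LowAhR+AD and 0.0122, 0.234, 0.33 and 0.352 in LowAhR+AD+BJ. With the exception of LowAhR+AD replicate 3, every DNCB-treated library was below every other. Krt10 over Krt14 was 1.81 to 4.24 in the 8 libraries without DNCB and 0.00603 to 1.23 in the 8 with it, without overlap.

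A further 2 ratios, of the partners in each pair, were chosen after the levels were seen. Krt14 over Krt5 was 0.596 to 0.649 in Cont and 0.652 to 0.852 in LowAhR. It was 0.542, 1.58, 2.14 and 1.97 in LowAhR+AD and 2.77, 2.75, 1.47 and 2.52 in LowAhR+AD+BJ, so that 7 of 8 DNCB-treated libraries were above all others and LowAhR+AD replicate 1 was below them. Krt10 over Krt1 was 2.61 to 4.59 in Cont and 4.11 to 7.31 in LowAhR. It was 0.160, 0.678, 1.15 and 0.598 in LowAhR+AD, below every library without DNCB, and 3.54, 1.21, 4.59 and 1.22 in LowAhR+AD+BJ.

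Other genes of the keratinocyte programme are described by lists, in LowAhR+AD versus LowAhR, where 12.6% of all tested genes were called and their median log2 fold change was 0.04. All 4 stress keratins, which keratinocytes make on wounding or rapid growth, were called higher, with a median log2 fold change of 5.53. Krt6b went from 11.2 ± 10.2 to 3802 ± 2945 CPM (8.41 on the log2 scale, adjusted p = 7.73e-04 from edgeR), and Krt16, a partner of the Krt6 keratins, from 20.6 to 1041 CPM (5.66, adjusted p = 1.48e-04 from edgeR). Of 11 other epithelial keratins tested (of 13 listed) 0 were called (median -0.47). Their summed levels overlapped between the groups, at 636 to 1053 CPM in LowAhR+AD and 711 to 837 CPM in LowAhR, whereas stress keratins summed to 11012 to 32999 CPM in LowAhR+AD and 526 to 1735 CPM in LowAhR.

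Of 12 genes that anchor basal cells to the basement membrane, 4 were called higher and 1 lower (median 0.45). Lama3, which encodes a laminin chain of the basement membrane, rose by 1.63 on the log2 scale (adjusted p = 0.0102 from edgeR). Col17a1, a hemidesmosome collagen, fell by 1.47 on the log2 scale (adjusted p = 0.00106 from edgeR). Of 20 regulators of keratinocyte differentiation, 10 were called higher and 1 lower (median 0.89). Tfap2a, a transcription factor gene, had a log2 fold change of 1.42 and Zfp750, a gene for a factor of terminal differentiation, 1.25 (adjusted p = 0.00440 and 0.00396 from edgeR). Klf4, a barrier transcription factor gene, fell by 0.90 on the log2 scale (adjusted p = 0.0230 from edgeR).

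Of 16 suprabasal genes that are not keratins, 1 was called higher and 1 lower (median -0.26), a share near the 12.6% of all tested genes and so no result about the list. Of these 2 genes, Tgm3, a transglutaminase gene, rose by 2.12 on the log2 scale (adjusted p = 0.0137 from edgeR) and Flg2, a filaggrin family gene, fell by 2.69 (adjusted p = 0.0426 from edgeR). Their summed level was 2278, 11094, 26584 and 9576 CPM in LowAhR+AD replicates 1 to 4, lowest and highest in the same libraries as Krt10. Of 21 keratinocyte genes in general, 7 were called higher and 0 lower (median 0.65), among them Sfn (1.65, adjusted p = 0.00396 from edgeR) and St14 (1.37, adjusted p = 0.0209 from edgeR). Of 12 cell cycle genes 7 were called higher and 0 lower (median 1.25), with 0.88 for Mki67, a marker of dividing cells (adjusted p = 0.0419 from edgeR). In LowAhR+AD+BJ versus LowAhR+AD, 0 genes of these lists were called.

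**Figure D5:**
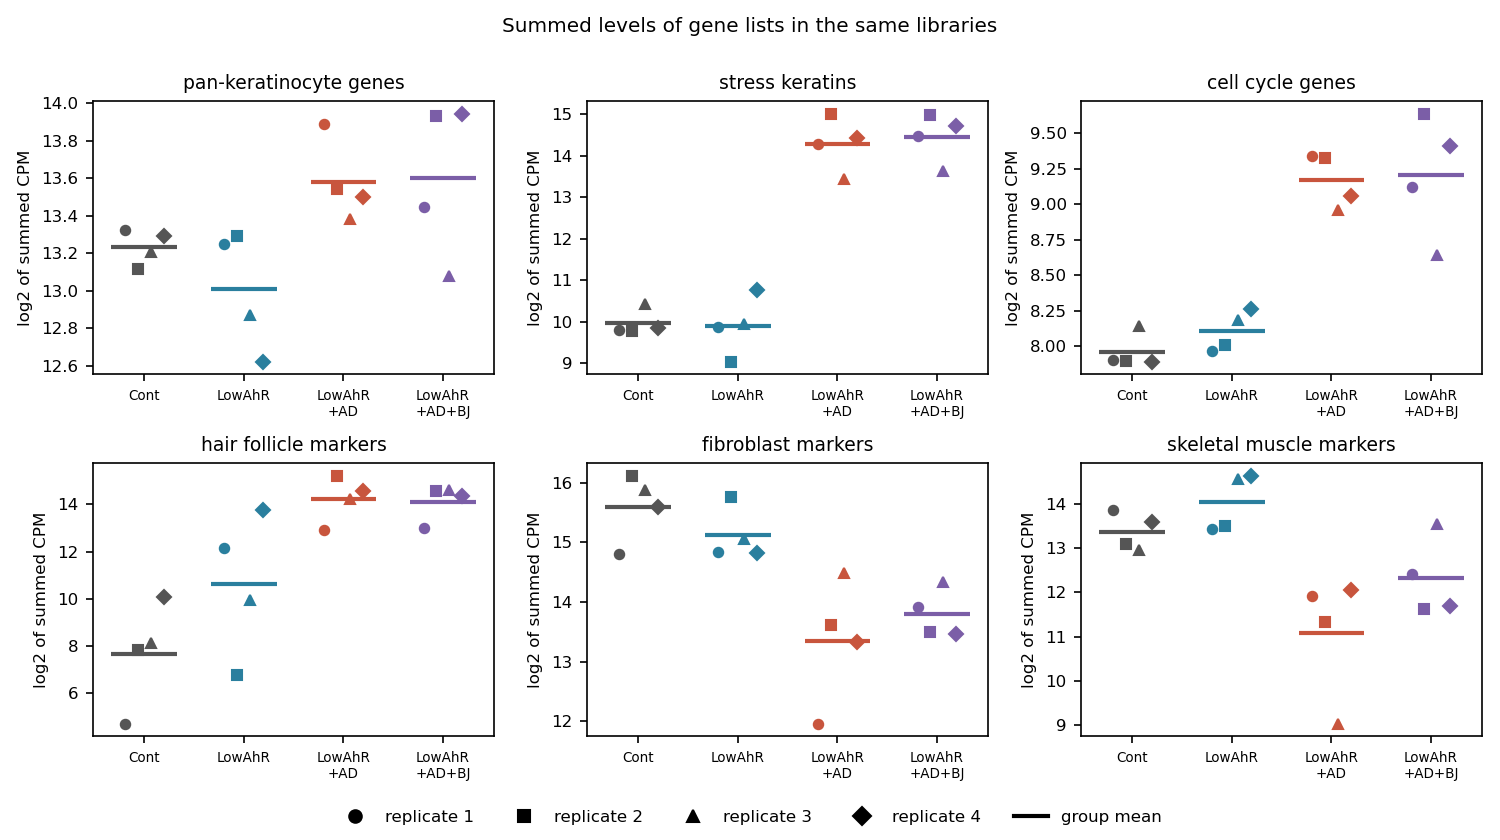
Summed level (log2 of summed CPM) of 6 gene lists in each of the 16 libraries, by group, with the group mean as a bar and the replicate number as the symbol. Stress keratins and cell cycle genes are higher in all DNCB-treated libraries, and fibroblast markers are lower in all of them, than in all libraries without DNCB.

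Markers of other cell types also differed between groups. Of all tested genes, 6.42% were called higher and 6.21% lower in LowAhR+AD versus LowAhR. In LowAhR+AD versus LowAhR, 10 of 10 skeletal muscle markers were called lower (summed 524 to 4258 against 11033 to 25348 CPM), as were 6 of 8 adipocyte markers (358 to 3801 against 7371 to 12028 CPM), 3 of 7 fibroblast markers (3967 to 23042 against 29090 to 55425 CPM) and 3 of 7 tested sebaceous gland markers (1274 to 1805 against 2896 to 5935 CPM). Of 18 hair follicle markers 1 was called higher, a share near that of all tested genes and so no result about the list. Their summed level was 7739 to 37933 against 109 to 13817 CPM (and 26.2 to 1082 CPM in Cont). In LowAhR+AD versus Cont, where Krt5 and Krt14 were also called, 17 of these 18 were called higher (median log2 fold change 6.5), against 12.3% of all tested genes. In LowAhR versus Cont 0 were called by edgeR. There 17 had an unadjusted p under 0.05 from edgeR (median 4.39), against 13.7% of all tested genes. Of 6 follicle stem cell markers 4 were called higher and 1 lower in LowAhR+AD versus LowAhR. Their summed level was 2439, 857, 831 and 946 CPM in LowAhR+AD replicates 1 to 4 against 990 to 1769 CPM in LowAhR. The high value came from replicate 1, the library with many missing genes, and the other replicates were below all LowAhR libraries. Neutrophil markers were higher (4 of 6 tested called, 131 to 2456 against 52.0 to 84.7 CPM), 2 of 6 tested T cell markers lower ( 2.14 to 12.7 against 21.4 to 34.9 CPM) and 1 of 5 tested melanocyte markers higher (371 to 448 against 181 to 228 CPM). The neutrophil list includes genes of the S100A family, which the paper places in a gene cluster of the epidermis. Its level is thus not specific to neutrophils. Of 8 macrophage and 7 endothelial markers 0 were called. In LowAhR+AD, Krt76 of the other epithelial keratins and Mc5r of the sebaceous gland markers were at 0 in every library. The part of these tissue differences in the keratin results was not tested, beyond changes of scaling, given here for LowAhR+AD versus LowAhR. Relative to the keratinocyte genes, Krt14 (log2 fold change 1.37), Krt2 (-4.69) and Krt77 (-6.95) were called, and Krt5 was not. With library sizes without muscle, follicle and fat markers, Krt5, Krt14, Krt2 and Krt77 were all called (1.39, 1.99, -4.41 and -6.40).

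For each keratin, the 3 genes outside the 8 with the most similar log2 CPM over the 16 libraries were listed by Pearson's r, as a description. Krt14 was most like Degs2 (0.98), the stress keratin gene Krt6a (0.97) and Scgb2b27 (0.97). Krt10 was most like Serpina12 (0.98) and the late cornified envelope genes Lce1a2 (0.98) and Lce1l (0.97), and Krt1 was most like Lce1h (0.83), Nccrp1 (0.83) and Lce1i (0.82). Krt5 was most like Csrp1 (0.96), Palld (0.94) and Eif3b (0.94), and Krt15 like Gas7 (0.86), Kcnc1 (0.85) and Lysmd1 (0.82). Krt77 was most like Dab1 (0.98), Fcgbp (0.97) and Crebrf (0.97), Krt2 like Dek (0.94), Blnk (0.92) and Ss18 (0.90), and Krt80 like Ciita (0.86), Baiap2l2 (0.85) and Fam13b (0.80). The libraries share group differences and depth, which also enter these values.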

How the data were processed

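RNA from dorsal skin was sequenced in 16 libraries, 1 per mouse, and groups and replicate numbers were taken from the labels. The authors deposited raw read counts per gene symbol from QuantSeq libraries. The submitters' processing notes name Bowtie2, bedtools and mm10, and the paper names ExDEGA, while versions, counting options, strand and the treatment of multiply mapped reads are not given in the sources used here. Replicates differed by a chi-square per degree of freedom of 16.9 to 299.5 over genes, far above sampling noise, so each library was 1 replicate.

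Testing was done with edgeR 4.0.16 in R 4.3.3 by the quasi-likelihood test, after TMM scaling (factors 0.892 to 1.16) and filterByExpr (minimum count 10, minimum total 15). All 16 libraries entered 1 model with the group as the only term, for 5 comparisons, and calls were made under an adjusted p of 0.05 (Benjamini-Hochberg, over the 14854 rows tested). The test was checked on simulated data. Log2 CPM used a prior count of 2. Single values were compared by two-sided exact permutation tests. Intervals on ratios of low counts are exact binomial at 95%. A fitted fold change is on edgeR's log2 scale.

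The 8 keratins, the 18 gene lists beside them and the tests were chosen with earlier results of these data known. Named genes were the members, the 3 most similar genes to each over all libraries, up to 2 called genes with the largest rise and 2 with the largest fall in each keratinocyte list in LowAhR+AD versus LowAhR, and Mki67. As alternatives, DESeq2 1.42.0, RLE factors, upper-quartile factors, limma 3.58.1 voom, no filter, at least 10 counts in every library, a replicate block, a model of only the 8 libraries concerned, library sizes without markers of muscle, follicle and fat, scaling to keratinocyte genes, and each library left out in turn were run. Flg was not analysed here, and 1 gene that the rule names is not reported here. Promoter windows are from the RefSeq table of GRCm38.p6 and gene positions from GENCODE M21.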

Additional observations from a re-analysis of the deposited data

Results flagged for a closer look

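In 32 sets of 4 libraries, 1 for each keratin and group, the gap between an extreme library and its nearest neighbour was divided by the range of the set on the log2 CPM scale, and 3 exceeded Dixon's 95% critical value of 0.829. Chance alone flags about 1 in 20 sets. Krt10 in LowAhR+AD+BJ replicate 1 had 53.9 CPM against 884 to 1407 CPM in the other replicates (gap over range 0.857). Krt14 in LowAhR+AD replicate 4 had 4193 CPM against 3269 to 3353 CPM (0.898), and Krt1 in Cont replicate 2 had 450 CPM against 656 to 695 CPM (0.869).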

How the results depend on the processing

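Over all alternatives, results for single keratins kept their direction and side of the threshold 632 times, lost the call 20 times, gained it 10 times and changed direction 39 times. The number of keratins called stayed at 0 for LowAhR versus Cont and for LowAhR+AD+BJ versus LowAhR+AD in every alternative. Krt14 and Krt77 in LowAhR+AD versus LowAhR were called in every alternative that gave a value (Krt14 1.37 to 2.00, Krt77 -6.95 to -6.39, and 1.89 to 2.06 and -7.29 to -6.02 with a library left out). With at least 10 counts in every library, Krt2, Krt77 and Krt80 were not tested, and 2 keratins were called in LowAhR+AD versus LowAhR, 2 versus Cont and 1 in LowAhR+AD+BJ versus LowAhR. With only the 8 libraries compared the numbers were 2, 3 and 1. With a library left out, they were 3 to 4, 4 to 5 and 1 to 2. With limma voom, Krt10 in LowAhR+AD versus Cont was called (-3.24, adjusted p = 0.0462), and Krt2 lost the call in LowAhR+AD versus LowAhR (-3.64, adjusted p = 0.259) and in LowAhR+AD+BJ versus LowAhR (-3.37, adjusted p = 0.366). With the replicate block, 4 keratins were called in LowAhR+AD versus LowAhR, 4 versus Cont and 2 in LowAhR+AD+BJ versus LowAhR, where Krt77 gained the call (-4.12, adjusted p = 0.0219), as with 5 other alternatives, and Krt2 lost it (-3.67, adjusted p = 0.0503). Replicate numbers did not pair the libraries, since 24 same-number correlations ran from -0.055 to 0.17 and in 6 of these 24 a library correlated best with its own number.

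The changes of direction were all in values that were not called. With limma voom, Krt1 was -0.12 (LowAhR+AD versus LowAhR), -0.51 (LowAhR+AD versus Cont) and -0.94 (LowAhR+AD+BJ versus LowAhR), and in LowAhR+AD+BJ versus LowAhR+AD, Krt15 was -0.026, Krt10 1.27 and Krt80 0.79. With the replicate block, Krt80 was 0.71 in LowAhR versus Cont, Krt1 -0.0071 in LowAhR+AD versus Cont and -0.12 in LowAhR+AD+BJ versus LowAhR, and Krt10 0.79 in LowAhR+AD+BJ versus LowAhR+AD. Relative to keratinocyte genes, Krt5, Krt77 and Krt80 were 0.22, 0.028 and 0.40 in LowAhR versus Cont, Krt2 -0.12 in LowAhR+AD+BJ versus LowAhR+AD, and Krt5 and Krt1 -0.074 and -0.60 in LowAhR+AD+BJ versus LowAhR. With unadjusted totals, the difference in mean log2 level of Krt15 was -0.10 in LowAhR versus Cont. With a library left out, the ranges were -0.16 to 0.054 for Krt5, -0.44 to 0.040 for Krt77, -1.46 to 0.50 for Krt80 and -0.13 to 0.18 for Krt15 in LowAhR versus Cont. They were -1.13 to 1.42 for Krt1 in LowAhR+AD versus LowAhR, -1.44 to 1.11 versus Cont and -0.55 to 0.53 in LowAhR+AD+BJ versus LowAhR. In LowAhR+AD+BJ versus LowAhR+AD they were -0.39 to 1.30 for Krt2, -0.33 to 0.19 for Krt15, -1.01 to 0.26 for Krt80, -1.62 to 1.26 for Krt1 and -0.70 to 2.85 for Krt10. The cause of these changes was not tested. Relative to keratinocyte genes, the median over all genes moved by 0.25 (LowAhR versus Cont), -0.59 (LowAhR+AD versus LowAhR), -0.33 (against Cont) and -0.57 (LowAhR+AD+BJ versus LowAhR), and calls that were higher went from 50.8% to 6.99%, 56.5% to 28.2% and 53.8% to 7.22% in the last 3. Over all genes, 1876 calls in LowAhR+AD versus LowAhR became 765 with only the 8 libraries, 0 in LowAhR versus Cont became 491 with DESeq2, 45 with the strict filter and 250 with 8 libraries, 0 in LowAhR+AD+BJ versus LowAhR+AD became 17 with DESeq2, and 1005 in LowAhR+AD+BJ versus LowAhR became 1676 with DESeq2. With a library left out, these counts over all genes, on which the printed shares rest, ran from 1128 to 2015 in LowAhR+AD versus LowAhR, 2459 to 3486 versus Cont, 414 to 1469 in LowAhR+AD+BJ versus LowAhR, 0 to 159 in LowAhR versus Cont and 0 to 1 in LowAhR+AD+BJ versus LowAhR+AD.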
